A study of Mus musculus with 2 samples.

Results

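The Wnt module comprised the ATAC-seq peaks whose assigned gene was a Wnt ligand, a Frizzled receptor or 1 of 28 further pathway genes named by symbol, in cardiac progenitor cells (CPCs) derived from mouse embryonic stem cells. It held 134 of the 26232 distinct peaks, or 0.511%, and its peaks carried the symbols of 55 of the 57 genes covered by the rule. ATAC-seq uses the Tn5 transposase to insert adapters into accessible DNA, and a peak is a region where the reads pile up above the surroundings. The data came from 2 replicates of 1 group, E14 Tg(Nkx2–5-EmGFP) cells at day 5 of differentiation. The strain was labelled C57BL/6, and the EmGFP reporter was driven by Nkx2-5, an early heart transcription factor. The study's methods describe both directed differentiation and hanging drops, and do not say which gave the ATAC-seq cells. Their hanging drop protocol includes a sort for GFP at day 5. Per the study's methods the replicates were independent differentiations of this reporter line, and no sort for EmGFP is stated for the ATAC-seq cells, so the peaks may come from several cell types of the culture. Isl1 knockdown cells, named in the design of the series, were not analysed here.

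Wnt ligands are secreted lipid-modified proteins that bind Frizzled receptors together with the co-receptors Lrp5 and Lrp6. This binding recruits Dishevelled, stops the Axin and Apc complex from marking β-catenin for breakdown, and lets β-catenin enter the nucleus to act with factors of the TCF/LEF family, whereas Wnt5a, Wnt11 and the Ror receptors act mostly without β-catenin. In the embryo canonical Wnt signals induce mesoderm, must then be held back for heart tissue to form, and later expand second heart field progenitors, while Wnt11 and Wnt5a shape the outflow tract.

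The list held 1 set of intervals found in both replicates, with no score or count for either, so that there was no value per replicate, no comparison between conditions and no test. Shares are therefore given with 95% Wilson intervals, which cover counting error over peaks or genes and treat them as independent, although peaks of 1 gene are not. Among genes that mark cell types, peaks were assigned to 7 of 8 cardiac progenitor genes, with Isl1 at 8 peaks and none for Hand2. They were also assigned to 3 of 4 pluripotency genes, with Klf4 at 8 peaks too, 4 of 5 blood and endothelial genes, 4 of 4 neural genes and 2 of 2 liver genes. Over all protein coding genes the share with a peak was 62.5%. The presence of a peak at any distance thus did not separate these cardiac genes from those of other lineages. Within 1 kb of the start site a peak stood at 6 of 8 cardiac, 2 of 4 pluripotency, 2 of 5 blood and endothelial, 3 of 4 neural and 0 of 2 liver genes. These lists are too short to compare.

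The sequences that bear on the module are shown first. TCF/LEF factors recognise CTTTGAT, or ATCAAAG on the other strand, and the stretches below are the matches within the central 300 bp of peaks of the module, read from mm9, with the matching letters in capitals.

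Axin2 start site peak, chr11:108782526-108782572, plus strand: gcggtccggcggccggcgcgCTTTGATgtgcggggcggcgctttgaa
Wnt5b start site peak, chr6:119399449-119399495, plus strand: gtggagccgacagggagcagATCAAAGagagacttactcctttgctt
Fzd2 -8847 bp, chr11:102456889-102456972, plus strand: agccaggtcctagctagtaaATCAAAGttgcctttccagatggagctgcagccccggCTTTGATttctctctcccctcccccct
Fzd7 -105589 bp, chr1:59433474-59433520, plus strand: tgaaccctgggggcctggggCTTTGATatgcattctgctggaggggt
Dkk3 -21218 bp, chr7:119323889-119323935, plus strand: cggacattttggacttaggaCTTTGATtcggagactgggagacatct
Znrf3 -30053 bp, chr11:5311804-5311850, plus strand: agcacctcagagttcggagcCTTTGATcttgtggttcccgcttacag
Dvl3 +7042 bp, chr16:20524096-20524142, plus strand: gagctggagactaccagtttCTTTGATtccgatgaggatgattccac
Lef1 +42951 bp, chr3:130858720-130858766, plus strand: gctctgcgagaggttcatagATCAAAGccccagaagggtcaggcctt

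The Fzd2 stretch carried a match on either strand, and the others carried 1 match each. Axin2, Lef1 and Znrf3 are textbook target genes of β-catenin signalling that feed back on the pathway. A further start site peak with such a match belonged to Wnt8a. The central 300 bp of the peaks of Dkk1, Rnf43 and Tcf7 held no match. Whether the matches mark target genes was not tested.

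The next stretches again have the matches in capitals. The first holds the most GATA matches found in the centre of a module peak beyond 10 kb (AGATAA or TTATCT, the letters recognised by GATA factors). The second holds the only ISL1 match (CTAATGG or CCATTAG) in the central 300 bp of a module peak. Over whole peaks the ISL1 letters occurred in 10 of the 134.

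Sfrp1 -23748 bp, chr8:24498139-24498236, plus strand: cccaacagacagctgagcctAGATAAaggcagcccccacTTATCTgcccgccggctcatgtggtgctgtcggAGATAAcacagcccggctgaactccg
Sfrp5 -11567 bp, chr19:42288262-42288308, plus strand: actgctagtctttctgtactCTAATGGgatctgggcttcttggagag

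The Sfrp1 stretch held 3 GATA matches within 98 bases. Both genes encode secreted proteins that bind Wnt ligands, and both stretches lay in intergenic DNA upstream of the start site.

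The last stretches are the centres of the widest distal peaks of Wnt11, Wnt5a and Wnt2, ligands that the study names among genes of outflow tract development. Capitals mark the GC box, GGGCGG or CCGCCC, and adjoining matches may share a letter.

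Wnt11 -19049 bp, chr7:105964424-105964723, plus strand: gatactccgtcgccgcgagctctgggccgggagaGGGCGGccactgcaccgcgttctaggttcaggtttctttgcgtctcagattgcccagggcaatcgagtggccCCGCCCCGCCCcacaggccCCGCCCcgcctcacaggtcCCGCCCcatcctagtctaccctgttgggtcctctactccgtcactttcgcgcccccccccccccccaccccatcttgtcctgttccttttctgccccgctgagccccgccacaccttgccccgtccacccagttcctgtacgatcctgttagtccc
Wnt5a -88033 bp, chr14:29230577-29230676, plus strand: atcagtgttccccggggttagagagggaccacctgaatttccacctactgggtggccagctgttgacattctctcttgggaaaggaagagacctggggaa
Wnt2 +88174 bp, chr6:17892222-17892321, plus strand: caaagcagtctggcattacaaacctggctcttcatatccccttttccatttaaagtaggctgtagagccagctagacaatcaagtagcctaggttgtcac

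The Wnt11 centre held 5 GC boxes in 300 bases, whereas none of the TCF/LEF, GATA, ISL1 or GC box letters occurred in the central 300 bp of the Wnt5a and Wnt2 peaks, of which 100 bases are shown. These sequences were chosen after their matches had been counted.

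Nearly every gene of the module carried a peak. Of the 57 genes, 55 had at least 1 peak (96.5%, 88.1 to 99.0), against 62.5% of 21900 protein coding genes. The same held for 39 of 43 other Wnt pathway genes (90.7%, 78.4 to 96.3), while 18 of 26 Fgf and Fgfr genes (69.2%, 50.0 to 83.5) and 11 of 14 Bmp and Bmpr genes (78.6%, 52.4 to 92.4) did so, with intervals that overlapped that of the other pathway genes. The intervals of the Wnt module and of the Fgf and Fgfr genes did not overlap. The module had 2.44 peaks per gene with a peak, against 2.56 for Fgf and Fgfr genes and 2.18 for Bmp and Bmpr genes. Over all 15351 gene symbols of the list the mean was 1.71. Those symbols are not all of coding genes, since 13682 coding genes had a peak. Among peaks wider than the median of the list the module had 1.36 per gene (95% Poisson interval 1.05 to 1.74) and all symbols of the list 1.25. Only 20 genes of the module, or 36.4% of those with a peak, had exactly 1, against 60.8% of all genes with a peak. A further 11 genes had 2 peaks, 10 had 3, 12 had 4, and Wnt11 and Tcf7l2 had 7 each.

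**Figure D1:**
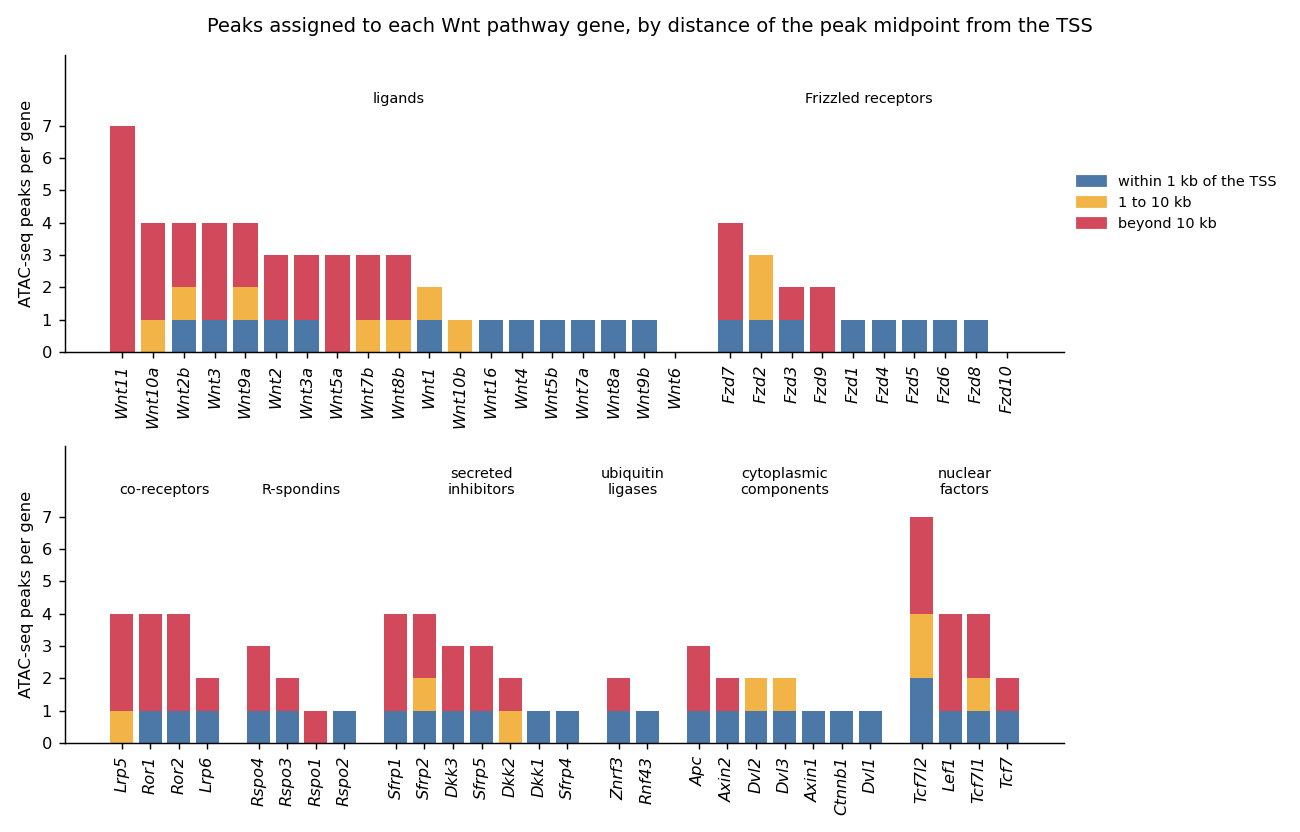
Number of ATAC-seq peaks (vertical axis) assigned to each of the 57 genes (horizontal axis), grouped by role and coloured by the distance of the peak midpoint from the assigned transcription start site (TSS). Wnt11 and Tcf7l2 reach 7 peaks, all 7 of Wnt11 lie beyond 10 kb, and Wnt6 and Fzd10 have none assigned.

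The peaks of the module lay farther from start sites than those of the whole list. A peak within 1 kb of its transcription start site (TSS) was found 46 times (34.3%, 26.8 to 42.7), against 44.9% of all peaks, and beyond 10 kb lay 71 peaks (53.0%, 44.6 to 61.2), against 41.4%. Both intervals left out the share of the whole list. Among peaks wider than the median of the list this separation ended, with 59.4% (47.1 to 70.5) of the module within 1 kb against 66.5%, and 29.7% (19.9 to 41.8) beyond 10 kb against 21.8%. The surplus stood between 10 and 50 kb, with 43 peaks (32.1%, 24.8 to 40.4) against 24.4%, and between 50 and 100 kb, with 20 peaks (14.9%, 9.87 to 21.9) against 8.76%. Beyond 100 kb the 8 peaks (5.97%, 3.06 to 11.3) had an interval that included the 8.20% of all peaks. The other Wnt pathway genes had 43.3% (33.6 to 53.6) of their 90 peaks beyond 10 kb, and the intervals of these genes and of the module overlapped.

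**Figure D2:**
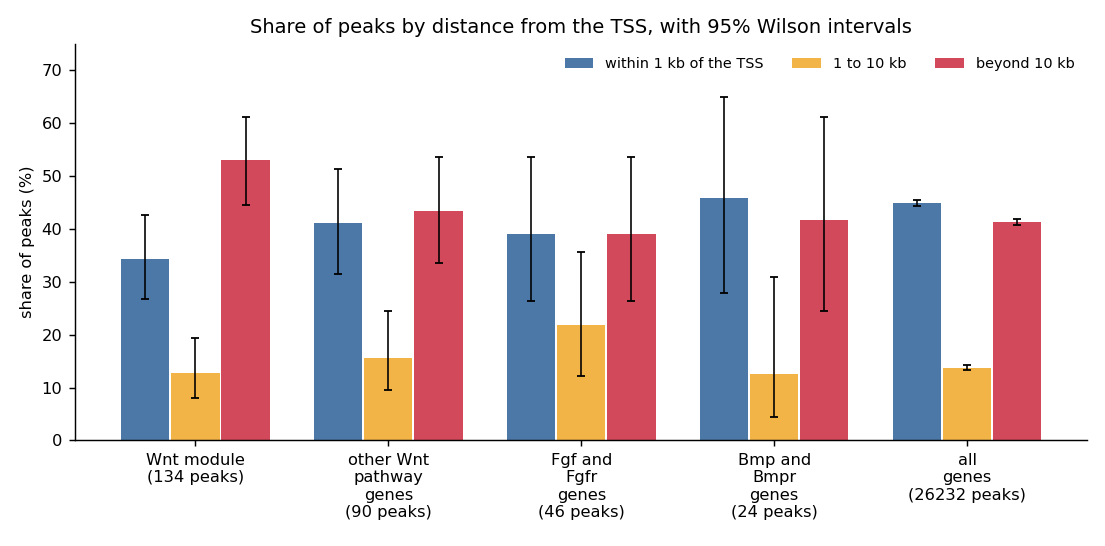
Share of peaks (%, vertical axis) in 3 classes of distance from the TSS for the Wnt module, other Wnt pathway genes, Fgf and Fgfr genes, Bmp and Bmpr genes and all genes, with 95% Wilson intervals as error bars. The Wnt module has 53.0% of its peaks beyond 10 kb and all genes have 41.4%, while the intervals of the 3 other families span the share of all genes.

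Of the 71 distal peaks, 31 lay upstream and 40 downstream of the TSS behind each distance, which for Wnt11, Lef1, Znrf3 and Tcf7l2 was not the same TSS for every peak. Inside the named gene lay 25 of them, 8 lay in another coding gene, and 38 had no coding host. For 70 of the 71 the nearest coding TSS in the GENCODE annotation was that of the named gene, the exception being the Sfrp1 peak at +120340 bp, which lay nearer to Zmat4. The assignment to the nearest TSS does not show which gene a distal region acts on. Genes of the module also had more room around them: the distance between the neighbouring coding start sites had a median of 224.8 kb against 95.4 kb over all genes. Per Mb of that space the module had 7.15 peaks against 4.19. Peaks were counted by the symbol of a coding gene, and those with other symbols were left out. The module kept all its peaks, so the value over all genes may be low beside it. Across the 57 genes the number of peaks and this space had a Spearman correlation of 0.19, given as a description.

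The ligands were the role with the largest number of distal peaks. The 18 ligand genes with a peak held 47 peaks, of which 28 (59.6%, 45.3 to 72.4) lay beyond 10 kb and 12 (25.5%, 15.3 to 39.5) within 1 kb. Among the ligands Wnt11 stood apart, with 7 peaks and none within 10 kb. Upstream of it, 5 peaks spread over 47.6 kb of intergenic DNA at -64663, -55933, -36998, -30228 and -19049 bp, and downstream of it lay peaks at +17826 and at +123932 bp, the last in an intron of Uvrag. The peak at -19049 bp, chr7:105963093-105966054, was 2962 bp wide, against a median of 880 bp for all peaks beyond 10 kb, and that at +17826 bp, chr7:106004237-106006126, was 1890 bp wide. The other 5 measured 867 to 1176 bp. Distances of Wnt11 peaks were given from 2 start sites, 105983623 for the upstream peaks and 105987356 for the downstream ones, and neither site lay in a peak.

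Wnt5a likewise had only distal peaks. All 3 lay upstream in introns of Erc2, at -204035 bp (chr14:29114270-29114979, 710 bp), -88033 bp (chr14:29230054-29231200, 1147 bp) and -54639 bp (chr14:29263649-29264393, 745 bp). They were well separated, the smallest gap being 32448 bp. Wnt2, a canonical ligand of the second heart field, differed from both in having a start site peak, chr6:17980098-17980941 at -74 bp and 844 bp wide. Its further peaks lay downstream at +77320 bp (chr6:17902683-17903568, 886 bp) and at +88174 bp in an intron of St7 (chr6:17891737-17892807, 1071 bp).

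Wnt10a, Wnt2b, Wnt3 and Wnt9a followed Wnt11 with 4 peaks each. Wnt3, which is needed for the primitive streak and mesoderm, had a start site peak of 2532 bp and, in its own introns, peaks at +35126 and +40711 bp, the first being 3270 bp wide (chr11:103668981-103672250) and the widest distal peak of the module. Wnt3a, a canonical ligand of early mesoderm, had a start site peak of 1846 bp and intronic peaks at +26304 and +29502 bp. The peaks of Wnt2b ranged from -31214 to +18438 bp, those of Wnt9a from -66 to +29518 bp and those of Wnt10a from -3991 to +24943 bp. Wnt4, Wnt5b, Wnt7a, Wnt8a, Wnt9b and Wnt16 had 1 peak each, in every case within 1 kb of the TSS and 1258 to 2504 bp wide. Wnt10b had 1 peak, at -2577 bp.

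Several ligand genes are neighbours in the genome. Over all assigned peaks the members of every such pair had unequal numbers, as with 3 for Wnt3a and 4 for Wnt9a. Peaks inside the span of a pair were equal in number in some cases and unequal in others. Wnt3 and Wnt9b, 24.3 kb apart, had 4 peaks over the span of the pair, 3 assigned to Wnt3 and 1 to Wnt9b. Wnt3a and Wnt9a, 16.2 kb apart, had 3 each within their span, and a further Wnt9a peak lay outside it. Wnt1 and Wnt10b, 11.7 kb apart, had 1 each within their span, and a further Wnt1 peak lay outside it. Over the span of Wnt10a and Wnt6, 19.6 kb apart, both peaks were assigned to Wnt10a. Wnt6 was the only ligand with no assigned peak, and the nearest peak, assigned to Prkag3, lay at -11841 bp from its TSS. Within such pairs the assignment rests on which start site is closer.

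The Frizzled receptors had fewer peaks per gene. Their 16 peaks fell on 9 genes, and 8 of the 16 lay within 1 kb (50.0%, 28.0 to 72.0), an interval that overlapped that of the ligands. The median width over all 16 was 1139 bp, against 1120 bp for the ligands. Fzd10 had no assigned peak, but a peak of 2923 bp (chr5:129104510-129107432) assigned to 5930412G12Rik covered its TSS. Fzd7, a receptor of mesoderm, had the most peaks, with 2142 bp at the TSS (chr1:59538037-59540178) and upstream peaks at -10982, -72349 and -105589 bp. Fzd2 had a 3212 bp peak at the TSS flanked by peaks at -8847 and +7162 bp. Fzd3 had a second peak in its own intron at +16847 bp. Fzd9 had peaks at -25657 and -35321 bp and none at the TSS. Fzd1, Fzd4, Fzd5, Fzd6 and Fzd8 had the start site peak alone.

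Start site peaks of Frizzled genes had the largest median width among the roles. The 95% interval of that median, 1027 to 3784 bp over 8 peaks, included the median of all genes. They measured 1727 bp at Fzd1, 3212 bp at Fzd2, 1381 bp at Fzd3, 2402 bp at Fzd4, 3784 bp at Fzd5, 1027 bp at Fzd6, 2142 bp at Fzd7 and 2532 bp at Fzd8, with a median of 2272 bp. The Fzd5 peak, chr1:64782107-64785890, was the widest of all 134. Over 2000 bp, an edge set after the widths were seen, stood 5 of these 8 peaks, 13 of the 46 start site peaks of the module (28.3%) and 13.3% of all peaks within 1 kb. Over the whole module the start site peaks had a median of 1587.5 bp (95% interval 1381 to 1842, quartiles 1172.8 to 2171.2), against 1326 bp (1317 to 1338) over all genes. Genes with CpG-rich promoters have wide peaks in general, and with these alone the medians were 1678 bp (1402 to 2142, 37 peaks) and 1411 bp (1400 to 1423, 7325 peaks). Beyond 10 kb the medians were 906 bp (830 to 1013) and 880 bp, and over all distances 1071.5 bp (986 to 1147) and 1081 bp. Width follows the peak caller and the depth of 1 replicate as well as the chromatin.

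**Figure D3:**
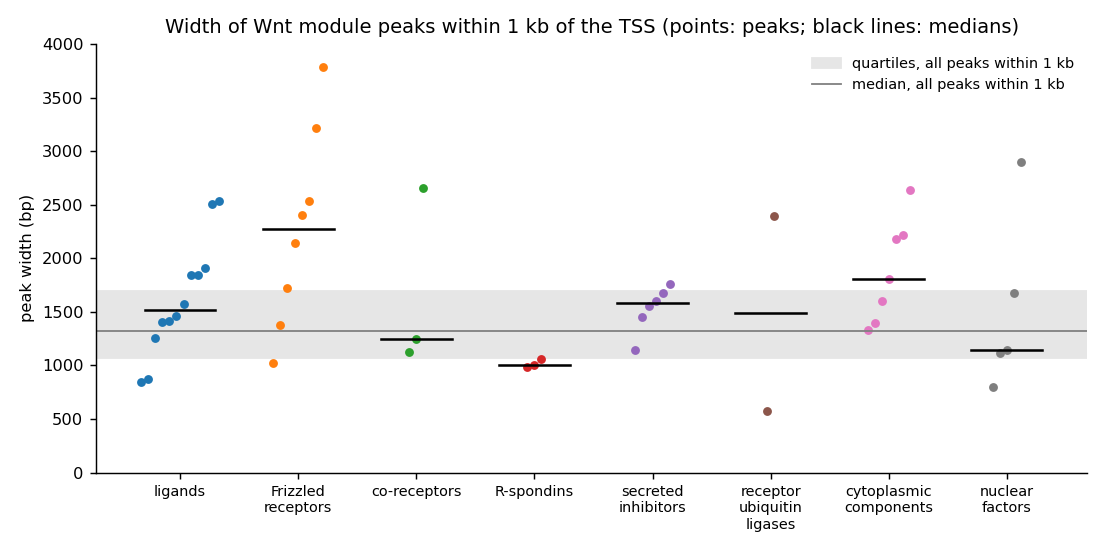
Width in bp (vertical axis) of each of the 46 module peaks within 1 kb of the TSS, grouped by role, with black lines for the medians and a grey band for the quartiles of all peaks within 1 kb. The Frizzled receptors have a median of 2272 bp, above the grey band, and the R-spondins, at 986 to 1056 bp, lie below it.

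Co-receptors carried the most distal peaks per gene among the cell surface proteins. Lrp5, Ror1 and Ror2 had 4 peaks each and Lrp6 had 2, and 10 of these 14 (71.4%) lay beyond 10 kb, 9 of them inside the gene itself. Ror1, a receptor for Wnt5a, had a start site peak of 2655 bp and intronic peaks at +92506, +118662 and +121048 bp. Ror2, which also binds Wnt5a, had a start site peak of 1127 bp, intronic peaks at +51784 bp, 2027 bp wide, and +73830 bp, and an upstream peak at -23904 bp. Lrp5 had its nearest peak at -1273 bp and the other 3 in its introns, whereas Lrp6 had a start site peak of 1247 bp and an intronic one at +77157 bp.

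R-spondins are secreted proteins that raise Wnt responses by removing the ubiquitin ligases Znrf3 and Rnf43 from the cell surface. The 4 genes had 7 peaks. Rspo2, Rspo3 and Rspo4 had start site peaks of 1002, 1056 and 986 bp, and Rspo1 had 1 peak, at -21138 bp. The second peak of Rspo3, a gene active in heart development, was the most distant of the module at -331169 bp (chr10:29586507-29587179, 673 bp). Znrf3 had a start site peak of 2399 bp and the intronic peak with a TCF/LEF match shown above. The distance of -30053 bp was measured from a second start site at 5281744 on chromosome 11, whereas the start site peak was measured from 5344851, so that this peak lay inside the gene, downstream of the start site with the peak. Rnf43 had 1 peak, 576 bp wide at -494 bp.

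Secreted inhibitors, most of which bind Wnt ligands (Sfrp) or Lrp co-receptors (Dkk1 and Dkk2), all had peaks. The 7 genes held 18 peaks, 6 within 1 kb and 10 beyond 10 kb. Sfrp1 and Sfrp2 had the most with 4 each. Sfrp1 had peaks at -50420, -23748, -52 and +120340 bp, and Sfrp2 at -2019, +203, +23540 and +31762 bp. Sfrp5, a marker of early heart precursors, had peaks at -11567 bp, at the TSS with 1678 bp and at +11599 bp. Dkk3 had a start site peak of 1760 bp with distal peaks on both sides. Dkk1 and Sfrp4 had the start site peak alone, 1604 and 1558 bp wide, and Dkk2 had none within 1 kb, the nearest lying at -1027 bp.

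The cytoplasmic components were all marked at the start site. Each of the 7 genes had a peak within 1 kb, and 3 of their 12 peaks (25.0%, 8.89 to 53.2) lay beyond 10 kb. That interval included the 41.4% of all peaks. Ctnnb1, which encodes β-catenin, had a single peak of 1333 bp at +39 bp (chr9:120841892-120843224). Axin2, a component of the destruction complex that is itself induced by Wnt, had the widest peak of this role, 2633 bp (chr11:108781235-108783867), and a peak of 512 bp at +64426 bp. The Axin2 start site peak held 3 TCF/LEF matches over its whole length, the 1 near its midpoint being shown above. Axin1 and Dvl1 had the start site peak alone, with 1807 and 2220 bp. Dvl2 and Dvl3, like Dvl1 adaptors that bind Frizzled, had a second peak inside the gene, at +5033 and +7042 bp. Apc, the scaffold of the destruction complex, had upstream peaks at -60920 and -88233 bp besides that at the TSS.

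The nuclear factors had the most peaks per gene, 17 on 4 genes. Tcf7l2 had 7 peaks, measured from 2 start sites at 55816301 and 55969812 on chromosome 19, and each site had a peak, 1119 and 799 bp wide. A peak lay upstream at -8984 bp. Between them, in the introns, lay peaks at +1791 bp, 2131 bp wide, +12649 and +29072 bp, and beyond the second site lay a peak of 512 bp at +13792 bp. Lef1, whose distal upstream peaks were measured from 130813216 and whose other peaks from 130815710 on chromosome 3, had a start site peak of 1148 bp (chr3:130814752-130815899), upstream peaks at -90673 and -164075 bp and the intronic peak at +42951 bp (chr3:130858277-130859044, 768 bp) whose TCF/LEF match is shown above. Tcf7l1 had a start site peak of 2899 bp and peaks at -36402, -6200 and +64331 bp. A further 3 peaks over the Tcf7l1 gene carried the symbol Gm15401 and were not counted. Tcf7 had a start site peak of 1678 bp and 1 peak at -14564 bp. Over all 57 genes, 12 peaks that lay over the body of 9 member genes carried another symbol.

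**Figure D4:**
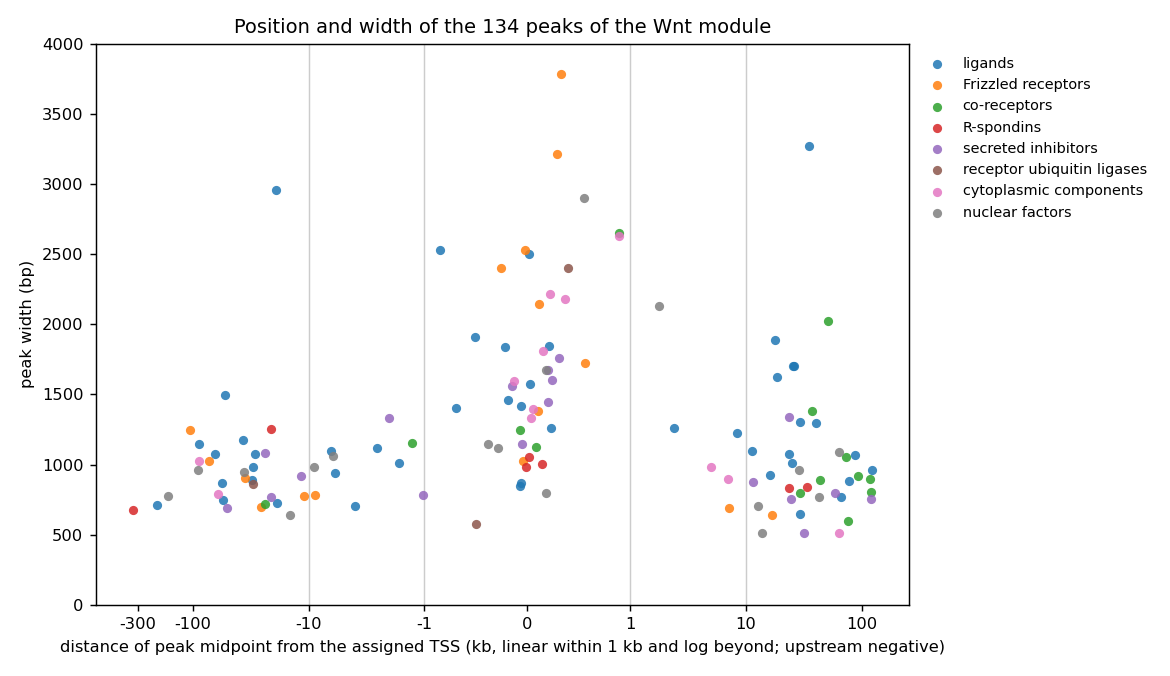
Width in bp (vertical axis) against the signed distance of the peak midpoint from the assigned TSS in kb (horizontal axis, linear within 1 kb and logarithmic beyond) for the 134 peaks, coloured by role. Peaks near the TSS reach 3784 bp, and beyond 10 kb the 3270 bp peak of Wnt3 and the 2962 bp peak of Wnt11 stand above the rest.

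Start sites themselves were examined apart from the assignment. A promoter, taken as the outermost coding TSS in GENCODE with 500 bp to each side, overlapped a peak for 43 of the 57 genes (75.4%, 62.9 to 84.8), against 53.5% of 22359 coding genes. Promoters of the module were more often CpG-rich, 78.9% against 44.6%, a class that needs at least 50% GC and 0.6 of the CpG dinucleotides its base composition predicts. Within that class the module had fewer promoters with a peak, 35 of 45 (77.8%, 63.7 to 87.5) against 89.4%, and among CpG-poor promoters it had more, 8 of 12 (66.7%, 39.1 to 86.2) against 24.7%. Of the 14 ligand genes with a CpG-rich promoter, 8 had a peak there (57.1%, 32.6 to 78.6), and of the 31 other genes 27 did (87.1%, 71.2 to 94.9), with intervals that overlapped. For Ctnnb1, counted as CpG-poor, and for Wnt5b and Lef1, counted as CpG-rich, the outermost TSS had no peak but another annotated coding TSS did. With any such TSS allowed, 37 of the 45 CpG-rich genes of the module and 9 of the 14 CpG-rich ligand genes had a peak at a start site. The share over all CpG-rich coding genes under this rule was not computed. The lower share of the module among CpG-rich promoters is therefore shown for the outermost TSS only.

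When every annotated coding TSS was allowed, 11 genes had no start site in a peak. Of these 7 were ligands, namely Wnt5a, Wnt6, Wnt7b, Wnt8b, Wnt10a, Wnt10b and Wnt11, and the others were Fzd9, Lrp5, Rspo1 and Dkk2. The promoters of 8 of the 11 were CpG-rich, a share near the 78.9% of the whole module, with Wnt5a at a GC content of 59.1% and Wnt11 at 62.9%. The absence of an interval is not a measurement of closed chromatin, since the list holds only regions called in both replicates.

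By annotation, 46 peaks lay within 1 kb of a coding TSS, 48 were intergenic (35.8%, 28.2 to 44.2, against 28.2% of all peaks) and 33 were intronic (24.6%, 18.1 to 32.6, against 22.2%). The remaining 7 lay in exons or a 3′ UTR. Of the intronic peaks, 25 lay in the gene they were assigned to, as for Ror1 and Tcf7l2, and 7 in another coding gene, as for Wnt5a in Erc2.

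The motifs were counted in the central 300 bp of every peak, on both strands. TCF/LEF letters occurred in 9 module peaks (6.72%, 3.57 to 12.3), against 2.98% of all peaks. Within 1 kb of the TSS these were Wnt5b, Wnt8a and Axin2, 3 of 46 (6.52%, 2.24 to 17.5) against 1.36%, and beyond 1 kb they were 6 of 88 (6.82%, 3.16 to 14.1) against 4.30%. Over the whole length of the peaks the shares were 17.9% (12.3 to 25.3) and 12.6%, and there the interval included the share of all peaks. GATA letters occurred in 15 peaks (11.2%, 6.90 to 17.6), against 9.50%. Within 1 kb they stood in 4 of 46 (8.70%, 3.43 to 20.3), against 3.28%, and beyond 1 kb in 11 of 88 (12.5%, 7.13 to 21.0), against 14.6%. The ISL1 letters occurred in 1 peak (0.746%, 0.132 to 4.11), against 1.82%, that of Sfrp5 shown above. GC boxes occurred in 56 peaks, 41.8% in the module and 41.8% of all peaks, with 35 of 46 (76.1%) within 1 kb against 66.5%. A match of these letters is not a measurement of binding, and the letters do not cover all sites of a factor.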

How the data were processed

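ATAC-seq was performed by the authors on 2 replicates of day 5 CPCs, and the values deposited were interval starts and ends, distances in bp, accessions and gene symbols in 1 list for both. According to the methods, alignment to mm9 used bowtie2 and peaks came from MACS14 with a fixed shift, and ENCODE blacklist regions were taken out. The submitters' processing notes name Picard 1.136 and bedtools 2.15. An interval was retained if it overlapped the other replicate's by 1 bp or more, with coordinates from 1 replicate. Nearest-TSS assignment is described for ChIP-Seq peaks, and apart from the shift no Tn5 correction is described. These steps affect widths and the numbers of weak peaks. Depth per sample is unknown, because no counts or signal were used.

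The 26429 lines held 26232 distinct intervals, each counted once, and 2 module intervals stood on 2 lines. Sequence came from NCBIM37 (mm9), gene models from GENCODE vM1, and the 21900 reference genes from a RefSeq table used for names. Python 3.11.15, numpy 2.4.6 and scipy 1.17.1 were used, and the counting steps were tested on simulated data. Every gene of the rule was placed by role with its number of peaks. Positions were given for the genes with most peaks in each role, for Wnt2, Wnt5a, Wnt11, Lef1, Tcf7, Tcf7l1, Tcf7l2, Axin2 and Ctnnb1, for the widest and most distant peaks and, for genes without a peak, the nearest one. Further positions were added after the values were seen. Members, lists and motifs were chosen with earlier results of these data known. Alternatives covered width limits, merging, repeated lines, assignment by GENCODE, distance to the peak edge, promoter and motif windows, and motif letters.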

Additional observations from a re-analysis of the deposited data

How the results depend on the processing

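Of 49 alternative values for 11 results, 34 stayed within the counting error of the reported value and 15 moved. With peaks wider than the median of the list alone, the module had 64 peaks, 82.5% of its genes had a peak (44.2% of all genes), and there were 1.36 peaks per gene (1.25 over all). In that setting 59.4% of module peaks lay within 1 kb (66.5% of all) and 29.7% beyond 10 kb (21.8%), and the median width was 1567.5 bp (1434 bp). No module peak of that setting held the ISL1 letters in its central 300 bp, at 0%. The median number of peaks per gene was 2, against 1 over all symbols of the list, and it counted as moved because it was set against the interval of a mean. Over whole peaks the shares were 17.9% for TCF/LEF (12.6% of all), 35.8% for GATA (33.5%) and 7.46% for ISL1 (7.32%), and with 1 letter fewer 15.7% (13.2%), 25.4% (22.4%) and 5.97% (6.54%). With the wider peaks, the intervals of the peaks per gene and of the shares within 1 kb and beyond 10 kb included the values of all peaks. In the central 200 bp GATA letters stood in 5.22% (6.69%). Neither replicate could be left out, and depth limits are unknown. No paired analysis was possible because there was 1 group, pooled in the list.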

Other observations

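The 43 other Wnt pathway genes, taken from a list outside the module, were described in the same way. A peak was assigned to 39 of them and within 1 kb of the TSS to 35, and 16 genes had a single peak. Prickle1, a planar cell polarity gene, had 8 peaks, more than any gene of the module, and 6 of them lay beyond 10 kb. The planar polarity genes Celsr1, Vangl1 and Prickle2 and the Wnt co-receptor Ryk had 4 peaks each, as did Bcl9l, Nkd1, Daam1 and Tnik. Other planar polarity genes had fewer, with 2 for Celsr3 and 1 each for Celsr2 and Vangl2. Wls and Porcn, which are needed for the secretion of Wnt ligands, had start site peaks of 1938 and 878 bp, and Notum, which inactivates ligands by removing their lipid, had 1 peak of 2915 bp. No peak was assigned to Gsk3a, Lgr6, Kremen2 or Dkk4.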
